A study of Sus scrofa with 12 samples.

Results

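IRF1, GBP1 and GBP2 are 3 genes that many cell types switch on when they meet interferon gamma. They were followed in the endometrium, the inner lining of the uterus, of 12 sows on Day 14 after insemination. They were chosen by their measured values in these same arrays, namely the difference between pregnant and non-pregnant sows and the spread among the pregnant ones, so those values are given as a description with no test. All probe sets (groups of array probes read as 1 value) that the platform annotation ties to these symbols alone were taken, which gave 5 probe sets of the 23999 tested, or 3 of 6765 named genes. GBP1 had 3 probe sets, GBP2 had 1 and IRF1 had 1.

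The sows fell into 4 groups of 3, namely pregnant Yorkshire (sows 2, 4 and 12), pregnant Landrace (sows 6, 8 and 10), non-pregnant Yorkshire (sows 1, 3 and 11) and non-pregnant Landrace (sows 5, 7 and 9). Non-pregnant sows had been inseminated with inactivated semen, so every sow was inseminated and none was cycling without it. Each sow gave 1 Affymetrix porcine array of total RNA from endometrium without its muscle layer, taken along both uterine horns after flushing. The ages of the sows are not given in the sources used here, and the tissue is a mixture of cell types, so more cells of a type and more RNA per cell cannot be told apart.

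Interferon gamma is a cytokine of activated T and natural killer cells, and in the pig the elongating conceptus also secretes it into the uterine lumen in the days around attachment. It binds a receptor of the subunits IFNGR1 and IFNGR2, which signals through the kinases JAK1 and JAK2, and a first set of genes that includes IRF1 is turned on. IRF1 is itself a transcription factor and drives later genes, among them guanylate-binding proteins such as GBP1 and GBP2, large GTPases that attack membranes of intracellular microbes, and genes of antigen presentation. GBP1 and GBP2 stand next to each other in the RefSeq gene table of the pig assembly Sscrofa11.1. Whether probes of these related genes also bind the other's transcript was not tested.

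The endometrial epithelium markers were present as labelled, with 10 of 10 measured genes above the array median on all 12 arrays. Non-pregnant sow 7 stood apart. Its array had the lowest best correlation with any other array, at r = 0.975 across probe sets against 0.983 to 0.992 for the rest. It lay at 43.52 on the second principal component, where the next highest sow lay at 21.24. On the first component it was at 20.42, among the pregnant sows at 15.47 to 43.84, while the other non-pregnant sows were at -42.28 to -8.15. Pregnant sow 12, at -18.95, lay among the latter. Genes that differ between the groups did not place sow 7 alike. The surface protein EMB, at 5.32 (other non-pregnant sows 4.12 to 5.56, pregnant sows 6.30 to 9.86), and the neuropeptide NPY, at 3.56 (3.48 to 3.78 and 3.97 to 8.98), placed it with non-pregnant sows. GPX3, at 7.42 (5.90 to 7.55 and 7.97 to 10.77), did so too. The calcium channel TRPV6 was at 9.35 in sow 7, against at most 7.88 in other non-pregnant sows and at least 9.45 in pregnant sows. The glucose transporter SLC2A1 was at 9.14, above pregnant sow 12 at 9.07, and the neutrophil protein S100A9 was at 9.35, against at most 3.91 in other non-pregnant sows and at least 7.72 in pregnant sows. Pregnant sow 8 lay in the pregnant range for EMB and NPY, at 8.48 and 5.58. Results that rest on sow 7 are therefore also given without it. The genes named here for sow 7 were picked after their values were seen. Values below are log2 expression values, on which a step of 1 is a doubling. They depend on the probes, so the level of 1 gene is not set against the level of another.

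IRF1, the transcription factor at the head of this group, was at 7.46, 7.78 and 7.39 in non-pregnant Yorkshire sows 1, 3 and 11 and at 7.23, 9.67 and 7.27 in non-pregnant Landrace sows 5, 7 and 9. In pregnant Yorkshire sows 2, 4 and 12 it was at 8.01, 9.88 and 9.71, and in pregnant Landrace sows 6, 8 and 10 at 10.38, 7.54 and 10.17. There were 5 high sows, pregnant sows 4, 6, 10 and 12 together with non-pregnant sow 7, and no value lay between 8.01 and 9.67. The pregnant mean was 9.28 ± 1.20 and the non-pregnant mean 7.80 ± 0.94 (SD, n = 6 each), a difference of 1.48 adjusted for breed, or 2.80-fold on the RMA scale. The groups overlapped through sows 7 and 8.

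GBP1, an interferon-induced GTPase, was at 6.54, 7.21 and 7.32 in non-pregnant Yorkshire sows 1, 3 and 11 and at 6.47, 10.49 and 6.53 in non-pregnant Landrace sows 5, 7 and 9. It was at 7.96, 10.54 and 11.26 in pregnant Yorkshire sows 2, 4 and 12 and at 12.02, 7.60 and 11.67 in pregnant Landrace sows 6, 8 and 10. The same 5 sows were high as for IRF1, with no value between 7.96 and 10.49. Pregnant sows had a mean of 10.17 ± 1.92 against 7.43 ± 1.54 without pregnancy (SD, n = 6 each), a difference of 2.75 or 6.71-fold. The 2 lower pregnant sows, 2 and 8, still lay above 5 of the non-pregnant sows, whose highest value was 7.32. The other 2 GBP1 probe sets gave differences of 2.35 and 2.06 and put the same 5 sows on top. Across the 12 sows the 3 GBP1 probe sets correlated with each other at r of 0.988 to 0.996.

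GBP2, the neighbouring GTPase, was at 5.65, 6.19 and 6.0 in non-pregnant Yorkshire sows 1, 3 and 11 and at 5.85, 8.14 and 5.89 in non-pregnant Landrace sows 5, 7 and 9. It was at 6.23, 8.06 and 8.94 in pregnant Yorkshire sows 2, 4 and 12 and at 10.34, 6.51 and 9.68 in pregnant Landrace sows 6, 8 and 10. Again 5 sows were high and the gap ran from 6.51 to 8.06. The means were 8.29 ± 1.68 and 6.29 ± 0.93 (SD, n = 6 each), a difference of 2.01 or 4.02-fold. Sow 7 was the lowest of the 5 high sows for GBP1 and IRF1, while for GBP2 pregnant sow 4 lay slightly below it.

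**Figure D1:**
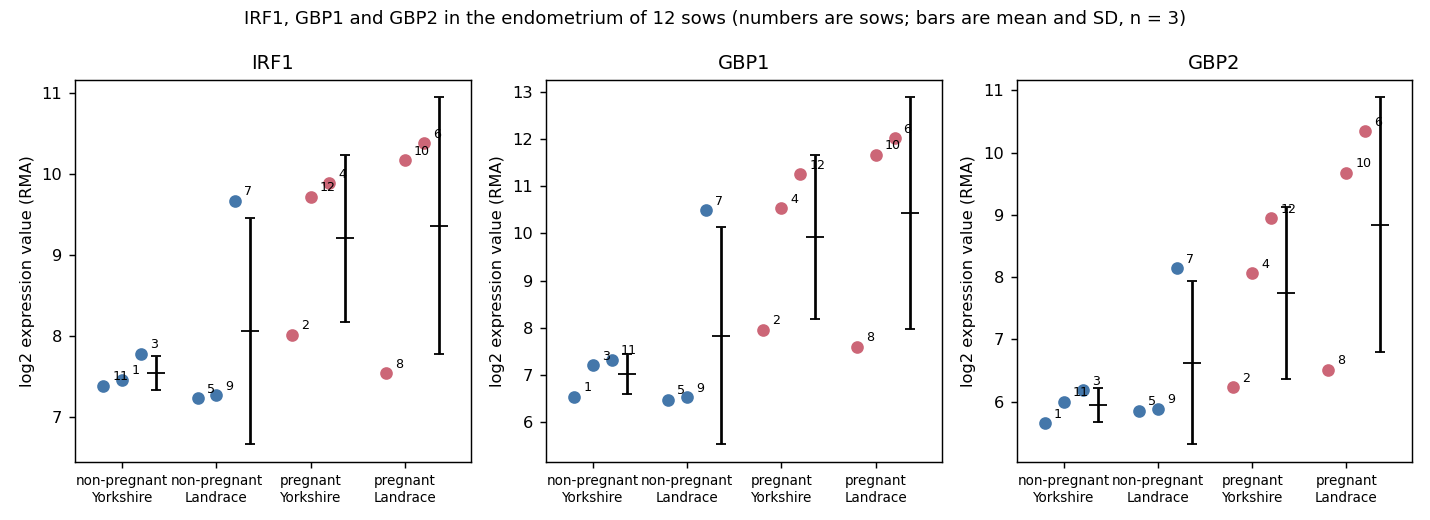
Log2 expression values of IRF1, GBP1 and GBP2 (y axes, each with its own scale) in each sow, by pregnancy and breed (x axis); points are sows with their numbers, bars are the mean and SD of 3 sows. Sows 4, 6, 7, 10 and 12 lie in an upper band and the other 7 sows in a lower band in all 3 panels, for GBP1 above 10.49 or below 7.96.

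All 3 genes had the same order of group means, with non-pregnant Yorkshire lowest, then non-pregnant Landrace, pregnant Yorkshire and pregnant Landrace. For GBP1 these means were 7.02 ± 0.42, 7.83 ± 2.30, 9.92 ± 1.73 and 10.43 ± 2.46 (SD, n = 3 each). For GBP2 they were 5.95 ± 0.27, 6.63 ± 1.31, 7.74 ± 1.38 and 8.84 ± 2.05. For IRF1 they were 7.54 ± 0.21, 8.06 ± 1.39, 9.20 ± 1.03 and 9.36 ± 1.58. That non-pregnant Landrace stood above non-pregnant Yorkshire rested on sow 7. Non-pregnant Landrace sows 5 and 9 were at 6.47 and 6.53 for GBP1, 5.85 and 5.89 for GBP2 and 7.23 and 7.27 for IRF1. All of these lay below the non-pregnant Yorkshire means. Neighbours in this order overlapped in their values for every gene, so no neighbouring groups differed beyond their spread. Apart from neighbours, non-pregnant Yorkshire sows lay below all pregnant Yorkshire sows for the 3 genes. They lay below all pregnant Landrace sows for GBP1 and GBP2 but not for IRF1. These are descriptions only, since the pregnancy values chose the members. The share of all genes that separate groups of 3 in this way is not given.

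Within breeds the difference between pregnant and non-pregnant sows was 2.89 in Yorkshire and 2.60 in Landrace for GBP1, 1.80 and 2.22 for GBP2, and 1.66 and 1.30 for IRF1. The Landrace values rest on sows 7 and 8, which lay with the opposite group. Over both breeds the differences without sow 7 were 3.35 for GBP1, 2.32 for GBP2 and 1.86 for IRF1. Without non-pregnant sow 7 the Landrace differences were 3.93, 2.97 and 2.11 for GBP1, GBP2 and IRF1, and without pregnant sow 8 they were 4.01, 3.38 and 2.22.

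The difference between breeds was not used to choose these genes and was tested. No member differed between Landrace and Yorkshire sows past the threshold of an adjusted p under 0.05 (limma, adjusted over 23999 probe sets). GBP1 was higher in Landrace by 0.66 ± 0.90 (SE, adjusted p = 0.743), with a 95% interval of -1.29 to 2.61 that leaves a several-fold difference either way within reach. GBP2 was higher by 0.89 ± 0.66 (adjusted p = 0.506, interval -0.55 to 2.33) and IRF1 by 0.34 ± 0.56 (adjusted p = 0.794, interval -0.87 to 1.55). Over all named genes, 5.26% were called for breed. Without sow 7 the breed difference of GBP1 fell to 0.05 and that of IRF1 turned to -0.040.

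The spread within groups was among the widest on the array. Among pregnant sows the SD of GBP1, 1.92, ranked number 8 of 6765 genes, that of GBP2, 1.68, number 14 and that of IRF1, 1.20, number 37, where the median gene had an SD of 0.18. Among non-pregnant sows the ranks were 30, 133 and 127. Without sow 7 the 5 non-pregnant sows had an SD of 0.41 for GBP1, 0.20 for GBP2 and 0.22 for IRF1.

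The 3 genes also ordered the sows alike. Over the 6 pregnant sows the Pearson correlation was 0.971 between GBP1 and GBP2, 0.984 between GBP1 and IRF1 and 0.931 between GBP2 and IRF1, with Spearman correlations of 0.943, 0.943 and 0.886. These are descriptions without a test, since the pregnant values chose the genes, and sows that lie in 2 bands give a high r by themselves. Without sows 2 and 8, the farthest from the median, the correlations among the 4 remaining pregnant sows were 0.994, 0.757 and 0.822. Within the 7 sows of the lower band they were 0.818, 0.792 and 0.538. The whole log2 range over 12 sows was 5.55 for GBP1, 4.69 for GBP2 and 3.15 for IRF1, and the other 2 GBP1 probe sets spanned 4.81 and 4.62.

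The RNA of the ligand was high in only some of the sows with high IRF1, GBP1 and GBP2. IFNG, the gene of interferon gamma itself, was at 12.65 in pregnant sow 10 and 8.21 in pregnant sow 6. In pregnant sows 2, 4, 8 and 12 it was at 4.20, 4.11, 4.26 and 4.00. In non-pregnant sows 1, 3, 5, 7, 9 and 11 it was at 4.13, 4.18, 3.61, 4.41, 3.83 and 3.73. These 10 values lie below the lower quartile of every array, 4.58 to 4.71, where mostly background is measured. Pregnant sows 4 and 12 and non-pregnant sow 7 therefore had high IRF1, GBP1 and GBP2 beside an IFNG signal in the background range, while the 2 sows with measurable IFNG had the highest IRF1, GBP1 and GBP2. IFNG differed between pregnant and non-pregnant sows by 2.25 ± 1.17 (SE, adjusted p = 0.280, limma). Interferon gamma protein was not measured, and its part in the values of the members was not tested.

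**Figure D2:**
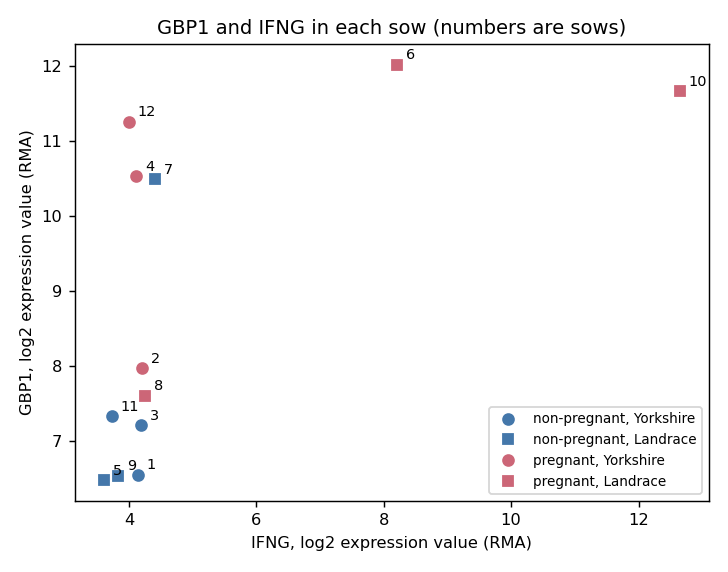
Log2 expression value of GBP1 (y axis) against that of IFNG (x axis) in each sow; colours give pregnancy, shapes give breed and numbers give the sow. IFNG is at 8.21 and 12.65 in sows 6 and 10 and at 3.61 to 4.41 in the other 10, which include 3 sows with GBP1 at 10.49 to 11.26.

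Markers of the conceptus trophoblast stood out in sow 10, and their part in the values of the members was not tested. The mean of 13 measured markers, IFNG among them, was 7.43 in sow 10 and 6.13 in sow 6, 5.61 to 5.66 in the other pregnant sows and 5.53 to 5.91 in non-pregnant sows. Over the 12 markers other than IFNG it was 7.0 in sow 10 and 5.96 in sow 6 and 5.72 to 5.78 in the other pregnant sows. In non-pregnant sows it was 5.68 to 6.04, with sow 7 highest and sow 1 next at 5.92. Without IFNG sow 6 therefore lay below sow 7 but above the other non-pregnant sows. Of the 13 markers, limma called 0 higher and 1 lower in pregnant sows, where 4.58% of all named genes were called higher and 7.48% lower. The difference was above 0 for 8 of the 13. The 2 markers that follow were picked after their values were seen. PAG6, a pregnancy-associated glycoprotein, was at 11.20 in sow 10 and 5.92 in sow 6 and at 4.30 to 4.56 in the other 10. CYP11A1, which starts steroid synthesis, was at 5.95 in sow 10 and 3.49 to 4.02 elsewhere. Sows 4 and 12, with IRF1 at 9.88 and 9.71, were at 4.32 and 4.33 for PAG6 and at 3.79 and 3.68 for CYP11A1, where non-pregnant sows spanned 4.35 to 4.56 and 3.49 to 3.77.

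Of 25 names on a list of interferon gamma and its signalling 17 were measured, and none was called higher or lower in pregnant sows (0 by limma, 2 at an unadjusted p under 0.05), where 4.58% of all named genes were called higher and 7.48% lower. Their median difference was 0.08, against -0.03 over all genes. JAK1, a receptor kinase, differed by 0.34 ± 0.13 (SE, adjusted p = 0.127) and PIAS1, an inhibitor of cytokine signalling, by 0.18 ± 0.06 (adjusted p = 0.0862). IL18R1, the receptor of a cytokine that induces interferon gamma, differed by -0.21 (adjusted p = 0.263). Between breeds its Landrace minus Yorkshire difference was -0.71 (adjusted p = 0.00379, limma). The receptor IFNGR1, the kinase JAK2 and the feedback inhibitor SOCS1 differed by -0.13, 0.14 and 0.30 (adjusted p = 0.722, 0.645 and 0.448). The other JAK2 probe set had the opposite sign. Without sow 7, JAK1 (0.45, adjusted p = 0.0210) and the adaptor MYD88 (0.27, adjusted p = 0.0423) were called higher.

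Among other interferon regulatory factors IRF2 rose. IRF2 binds the same DNA element as IRF1 and is known as its antagonist. It was at 9.03, 8.70, 9.11, 9.15, 9.13 and 9.09 in pregnant sows 2, 4, 6, 8, 10 and 12 and at 8.40 to 8.85 in non-pregnant sows, with sow 7 highest among the latter. The rise of 0.49 ± 0.08 (SE, adjusted p = 0.00688, limma) was shown by 6 of 6 pregnant sows against the non-pregnant mean, and both other IRF2 probe sets had the same sign. Sows 2 and 8, low for IRF1, were as high for IRF2 as the other pregnant sows. It was 1 of 6 other measured factors and no other of them was called, where 4.58% of all named genes rose and 7.48% fell. IRF8, a factor of myeloid cells, did not pass (adjusted p = 0.635) but was at 7.75 in sow 7 and 7.08 in sow 6 and had r = 0.819 to the mean profile of the members.

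No other guanylate-binding protein was measured under its own symbol. Of 12 further names of interferon-inducible and related GTPases 3 were measured, MX1, MX2 and ATL3. None was called (0 by limma, 1 at an unadjusted p under 0.05), where 4.58% of all named genes were called higher and 7.48% lower. MX1, an antiviral GTPase of the type I interferon response, differed by -0.83 ± 0.35 (SE, adjusted p = 0.170), opposite in sign to GBP1 and GBP2.

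Targets of interferon gamma other than the members were mostly not called in the comparison of pregnant with non-pregnant sows, yet many followed the members from sow to sow. Of 90 names, 4 of them also on the signalling list, 55 were measured, of which 1 rose and 1 fell, where 4.58% of all named genes rose and 7.48% fell. STAT2, a transcription factor of the interferon response, rose by 0.81 ± 0.22 (SE, adjusted p = 0.0416, limma, higher in 5 of 6 pregnant sows), a call lost on leaving out sow 1, 3, 4, 5, 6, 9, 10, 11 or 12 singly, with a highest adjusted p of 0.0979. PNP, an enzyme of purine salvage, fell by 0.48 ± 0.10 (adjusted p = 0.0184, lower in 6 of 6). The median difference of the 55 was 0.08, and 37 were above 0.

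Leaving out non-pregnant sow 7 changed this count. Without it 11 of the 55 rose and 1 fell, where 6.34% and 7.78% of all named genes did, and the median of the list was 0.36 against -0.02 over all genes. The 11 were the complement proteases C1R and C1S, their inhibitor SERPING1, the MHC class II transactivator CIITA with SLA-DRA and CD74 of the class II pathway, the lysosomal enzymes CTSS and IFI30, the T cell attractant CXCL9, the adhesion molecule ICAM1, and STAT2. CXCL9 differed by 2.06 ± 0.50 (SE, adjusted p = 0.0271) and IFI30 by 1.22 ± 0.17 (adjusted p = 0.00536) without sow 7. Dropping a non-pregnant sow with high values makes such differences larger by construction. With all sows kept but weighted by the quality limma estimated for each array, 8 of 55 rose, where 8.20% of all named genes did, and 6 of them were among the 11. Sow 7 had the lowest weight, 0.519.

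To name the genes most like the members, each gene was correlated over the 12 sows with the mean of the standardised IRF1, GBP1 and GBP2 values. The 10 highest were RNF19B (r = 0.954), a ubiquitin ligase, SLA-DMB (0.946), which loads peptides on MHC class II, the peptide transporter TAP1 (0.942), the death ligand TNFSF10 (0.940), the lysosomal lipase LIPA (0.930), STAT2 (0.927), the matrix-binding receptor ANTXR2 (0.918), SLA-DOA (0.914), which modulates class II loading, NUB1 (0.913), which lowers the ubiquitin-like protein NEDD8, and PGD (0.913) of the pentose phosphate pathway. SLA genes are the MHC genes of the pig. The 12 points share their arrays and lie in 2 bands. Within the 7 sows of the lower band the r of these 10 genes ran from 0.09 to 0.93.

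TAP1 shows the pattern. It was at 8.20, 8.82, 8.84, 8.13 and 8.62 in non-pregnant sows 1, 3, 11, 5 and 9 and at 10.14 in sow 7, and at 8.23 and 8.33 in pregnant sows 2 and 8 against 9.67, 10.01, 10.28 and 10.06 in pregnant sows 4, 12, 6 and 10. The same 5 sows were high, and TAP1 differed between pregnant and non-pregnant sows by 0.64 ± 0.43 (SE, adjusted p = 0.419, limma). TNFSF10 differed from this in sow 7, where it was at 4.98, below 5.48 to 7.35 in pregnant sows 4, 12, 6 and 10. Over the 6 pregnant sows alone, the genes most like the members were PSMB8 of the immunoproteasome (r = 0.998), the carnitine transporter SLC22A5 (0.992), SLA-DQA1 of class II (0.991), TAP1 (0.990) and the cytokine receptor chain IL2RG (0.990). IL2RG spanned only 5.77 to 6.22 in pregnant sows and was at 8.75 in sow 7, and its r over 12 sows was 0.433.

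**Figure D3:**
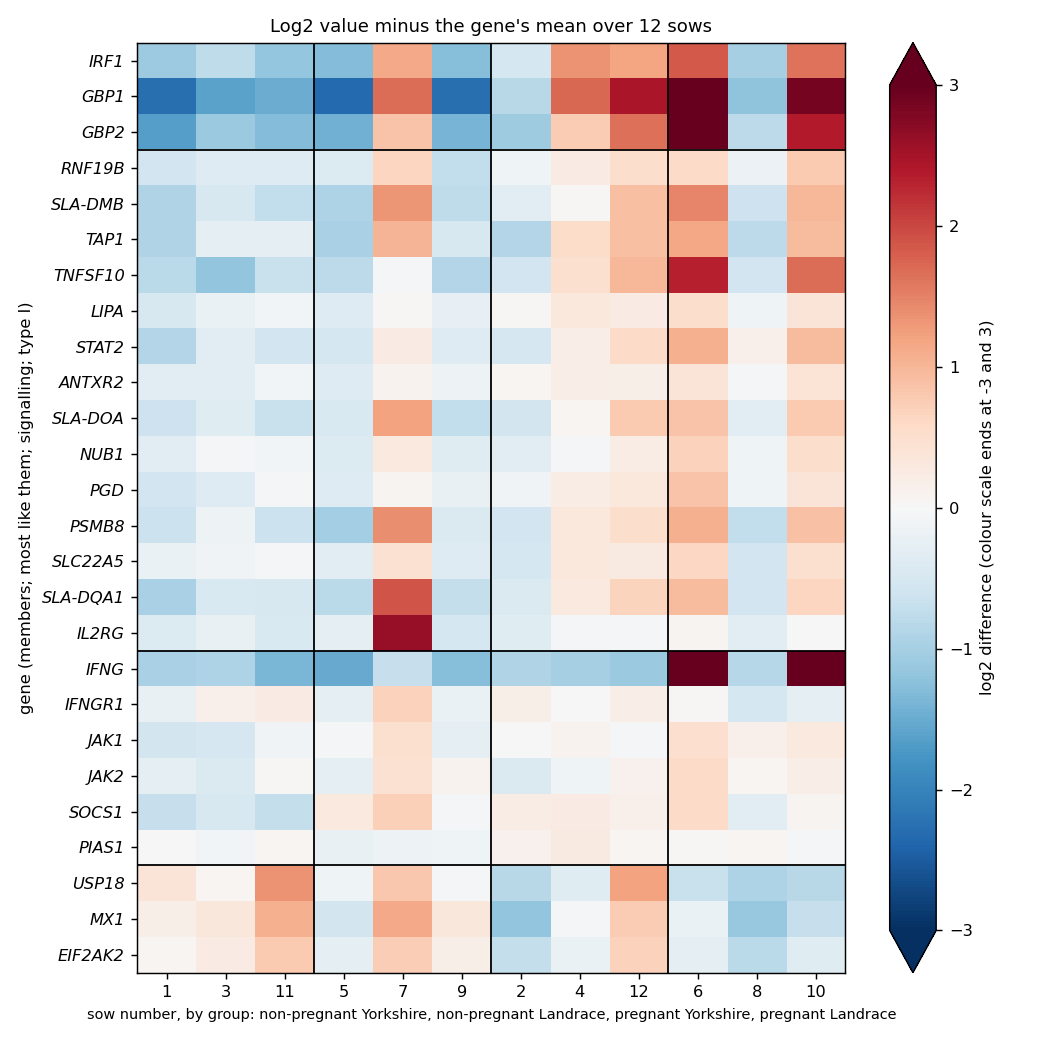
Log2 value minus the mean of that gene over 12 sows (colour, with both ends of the scale given on the bar) for the members, the genes most like them, interferon gamma signalling genes and 3 type I interferon genes (rows) in each sow (columns, in 4 groups). Sows 4, 6, 7, 10 and 12 are red for the members and for most of the genes like them, IFNG is red in sows 6 and 10, and USP18 and MX1 are most red in sows 7, 11 and 12.

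Across the target list the likeness was higher in the median than over other genes but uneven, from r of -0.62 (PNP) to 0.94 (TAP1). The median r of the 55 targets was 0.65, against -0.07 over the 6762 other genes, and 20 of 55 had r above 0.8, a limit set after the values were seen, where 1.05% of all other genes did. The 20 included WARS, a tRNA synthetase (0.910), CXCL9 (0.876), CASP1 of the inflammasome (0.862), CIITA (0.860) and IL15, a cytokine of natural killer cells (0.803). B2M, the light chain of MHC class I, had r of -0.18. Without sows 6 and 10, the farthest from the median of the member profile, 13 targets were above 0.8. Within the lower band of 7 sows the median r of the targets was 0.22, against -0.03 over other genes. In that band CXCL9, CASP1 and CIITA had r of 0.90, 0.89 and 0.70, while IL15 and WARS had r of -0.03 and -0.62.

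**Figure D4:**
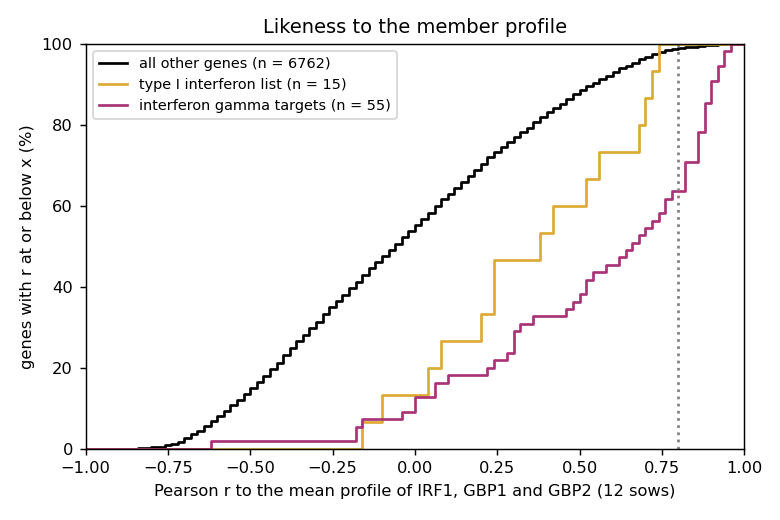
Share of genes in percent (y axis) whose Pearson r to the mean profile of IRF1, GBP1 and GBP2 over 12 sows is at or below the value on the x axis, for the 55 interferon gamma targets, the 15 type I interferon genes and the 6762 other genes. The curve of the targets lies to the right, with a median of 0.65 against 0.37 for the type I list and -0.07 for all other genes; the dotted line is at 0.8.

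Antiviral genes of the type I interferon list were not called between the groups, yet many followed the members among pregnant sows. Of 24 names 15 were measured and none was called (0 by limma, 3 at an unadjusted p under 0.05), with a median difference of -0.12. Of all named genes 4.58% were called higher and 7.48% lower, so few calls would be met in a list of this length. Over 12 sows 0 had r above 0.8 to the members. Over the 6 pregnant sows the median r of the list was 0.66, against -0.05 for all other genes and 0.80 for the interferon gamma targets. IFIT2, IFIT3 and IFIT1 of the antiviral response had r of 0.956, 0.940 and 0.935 there, the antiviral enzyme RSAD2 0.941, IFI44L 0.938 and the ubiquitin-like protein ISG15 0.884. Within the 7 sows of the lower band the r of these genes ran from -0.50 (ISG15) to -0.11 (RSAD2). The median r of the list was -0.37 in that band, against -0.03 over other genes. OAS1, TYK2, IFNAR2 and IFNAR1 of the same list had r of 0.03, 0.002, -0.22 and -0.25 over the 6 pregnant sows. All of these genes were named after their values were seen. USP18, a protease that removes ISG15, differed by -0.81 ± 0.33 (SE, adjusted p = 0.159) and the RNA-sensing kinase EIF2AK2 by -0.57 ± 0.24 (adjusted p = 0.172). USP18 was highest in non-pregnant sow 11 at 9.74, where GBP1 was at 7.32, and in pregnant sow 12 at 9.59.

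Immune cell markers moved with the members in some sows, and their part in the values above was not tested. The mean of 8 measured macrophage and monocyte markers was 8.82 in sow 7, 6.70 to 6.80 in the other non-pregnant sows and 6.96 to 7.47 in pregnant sows, of which sows 4, 6, 10 and 12 were at 7.25, 7.47, 7.38 and 7.21 and sows 2 and 8 at 6.99 and 6.96. The complement subunits C1QA and C1QC and the macrophage protein AIF1 followed the members over the 6 pregnant sows, with r of 0.989, 0.949 and 0.924. They were highest among pregnant sows in sows 6 and 10, at 9.28 and 9.11, 10.55 and 10.21, and 8.91 and 8.44. CD86 had r of 0.895, while CD163, a scavenger receptor of macrophages, had r of -0.88 and was at 11.11 in sow 7 and 6.69 to 7.57 elsewhere. The mean of 9 T cell markers was 6.73 in sow 7, at most 5.61 in other non-pregnant sows and 5.53 to 6.02 in pregnant sows. That of 6 NK cell markers was 7.37, at most 6.34, and 6.40 to 6.84. On these 3 lists 0 markers were called for pregnancy by limma, with 0, 1 and 1 at an unadjusted p under 0.05, where 4.58% of all named genes rose and 7.48% fell. That fit included sow 7, highest on each list. Leaving sow 7 aside, the macrophage and NK cell means of all pregnant sows lay above those of all non-pregnant sows, while the T cell means overlapped. Dropping a non-pregnant sow with high values favours such a separation by construction. The share of all genes that separate in this way is not given. The T cell surface protein CD2 was at 7.36 and 7.20 in sows 6 and 10, 5.82 to 6.36 in the other pregnant sows and 8.08 in sow 7, with r of 0.875 over pregnant sows, and CD8A had r of 0.852. CD3E, a defining T cell chain, was at 5.33 to 5.82 in pregnant sows and 7.40 in sow 7, with r of -0.16. Markers of further cell types were counted where 4.58% of all named genes rose and 7.48% fell. The mean of 9 endothelial markers, of which 6 rose, was 7.67 and 7.13 in pregnant sows 2 and 8, 7.07 to 7.54 in the other pregnant sows and 6.43 to 7.0 in non-pregnant sows. That of 5 neutrophil markers, of which S100A9 rose, was 7.08 and 6.62 in sows 2 and 8, 4.87 to 7.23 in the other pregnant sows, 6.85 in sow 7 and at most 4.24 in the other non-pregnant sows. Of 10 epithelial markers MUC1 rose and CLDN7 and KRT8 fell, with a median difference of -0.11. Of 7 stromal markers 4 rose, and of 2 measured B cell markers 0 were called by limma (0 at an unadjusted p under 0.05). The log2 difference between 3' and 5' GAPDH control probes is a sign of RNA integrity. It was 0.45 to 0.77 in pregnant and 0.38 to 0.77 in non-pregnant sows, with 0.38 in sow 7. By breed it was 0.55 to 0.77 in Yorkshire and 0.38 to 0.54 in Landrace sows, which did not overlap. Whether this bears on the breed differences was not tested.

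**Figure D5:**
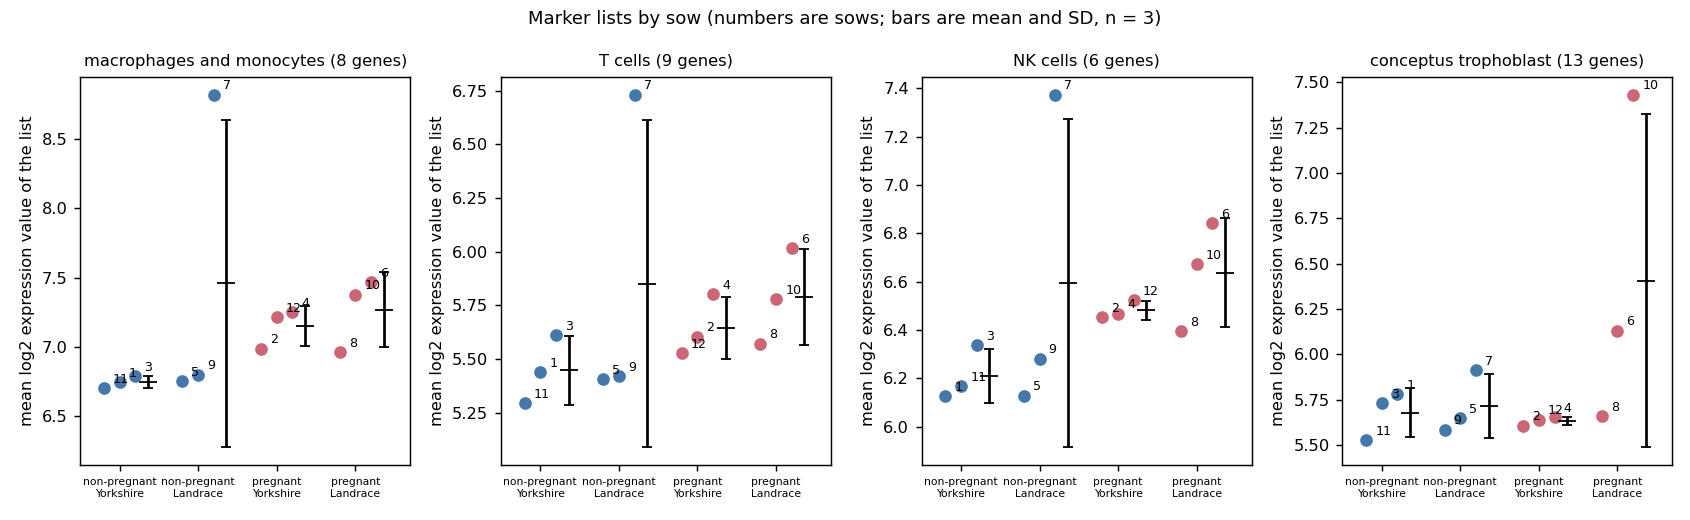
Mean log2 expression value (y axes) of the measured markers of macrophages and monocytes, T cells, NK cells and conceptus trophoblast in each sow, by pregnancy and breed (x axis); points are sows with their numbers, bars are the mean and SD of 3 sows. Sow 7 is highest for the first 3 lists, at 8.82, 6.73 and 7.37, and sow 10 for the trophoblast list, which includes IFNG, at 7.43.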

How the data were processed

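The authors deposited log2 values, 1 for each probe set and array, and the submitters' processing notes name RMA, affy and limma without versions. RMA corrects background, makes the arrays' distributions alike and combines probes, so differences are relative to the rest of an array, and those of dim probe sets come out too small. The number of arrays limits the precision. Of 24123 probe sets 124 controls were left out. Of the rest 10069 had 1 symbol in the platform annotation, 198 several and 13732 none, and 9961 had a gene identifier in the RefSeq table of Sscrofa11.1, which changed 0 symbols. A gene was read from whichever of its probe sets had the highest mean. No coordinates are printed, as the genome build is not given in the sources used here.

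Differences were fitted with limma 3.58.1 in R 4.3.3 over all 12 arrays, with pregnancy and breed as additive terms (9 residual degrees of freedom), two-sided, with Benjamini-Hochberg adjustment over 23999 probe sets. The procedure was tested on simulated data. The members and lists were chosen with earlier results of these data known. Named genes were the called genes of each list or, with none called, the 3 with the smallest p, IFNG, IFNGR1, JAK1, JAK2 and SOCS1, and the 10 and 5 genes most like the members over 12 and over 6 pregnant sows; genes named outside this rule (CXCL9, WARS, CASP1, IL15, B2M, IRF8, MYD88, type I genes named for their r, those called without sow 7 and single markers) were chosen after their values were seen. Other settings were cyclic loess, median centring, a filter on dim probe sets, array weights, a robust prior with an intensity trend, 1 term only, the mean of a gene's probe sets and leaving out each sow. Leaving out sows 7 and 12, or 6 and 10, was added after the data were seen. Replicate numbers are not shared between groups, and the labels name no pairs. Figures were drawn with matplotlib 3.10.9.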

Additional observations from a re-analysis of the deposited data

Results flagged for a closer look

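Of 62 groups of 6 sows, formed by 31 named genes and pregnancy, 13 held a sow whose gap to the nearest other sow took up more of the range of the group than the 95% limit of Dixon's test allows, where chance gives about 1 in 20. In 11 of the 13 this was the value of non-pregnant sow 7, the highest of its group. It was at 10.49 for GBP1 (next highest 7.32), 8.14 for GBP2 (6.19) and 9.67 for IRF1 (7.78). It was also highest for MX2 at 7.52 (6.35), RNF19B at 7.55 (6.54), SLA-DMB at 8.84 (7.04), TAP1 at 10.14 (8.84), SLA-DOA at 7.82 (6.25), PSMB8 at 10.16 (8.61), SLA-DQA1 at 11.85 (9.50) and IL2RG at 8.75 (5.90). The members were chosen by their values in these arrays, and other genes partly by their likeness to the members. The flags therefore repeat each other, and 13 of 62 is no test against 1 in 20. Pregnant sow 4 was lowest for IRF2 at 8.70 (nearest 9.03), and pregnant sow 12 was highest for USP18 at 9.59 (next highest 8.03).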

How the results depend on the processing

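The pregnancy differences of GBP1, GBP2 and IRF1 kept their sign under all 21 alternatives. They ran from 1.85 to 3.39, 1.16 to 2.50 and 0.93 to 1.91, moving by less than the spread between sows. Some settings cannot move these differences and so are no check on them. Such settings were the dim filter, the robust prior with an intensity trend and 1 term only, and for GBP2 and IRF1 the mean of probe sets. Leaving out each sow in turn gave 2.41 to 3.39, 1.65 to 2.50 and 1.28 to 1.91, lowest without sow 6 and highest without sow 8. Breed differences were called under none of them. Leaving out 1 sow at a time, the breed difference was 0.05 to 1.30 for GBP1, 0.53 to 1.39 for GBP2 and -0.040 (without sow 7) to 0.76 for IRF1, and without sows 6 and 10 it was -0.24, 0.044 and -0.21. The count of signalling genes that rose was 2 with array weights, 2 without sows 7 and 12, and 0 to 2 leaving out 1 sow. The count of regulatory factors that rose was 0 without sows 6 and 10, where IRF2 reached an adjusted p of 0.0561. The count of targets that rose was 2 without dim probe sets, 8 with array weights, 0 without the breed term, 10 without sows 7 and 12, 0 without sows 6 and 10, and 0 to 11 leaving out 1 sow, with 11 without sow 7 and 4 without sow 8. That of targets that fell was 1 to 2 leaving out 1 sow (2 without sow 11 or 12), 2 without sows 7 and 12 and 0 without sows 6 and 10. Targets with r above 0.8 numbered 13 without sows 6 and 10 and 15 to 23 leaving out 1 sow. Apart from the fewer sows in some fits, the cause was not tested. Signals below an array's lower quartile, such as IFNG in 10 sows, limit how exactly differences are known.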
